A study of Penicillium oxalicum with 6 samples.

Results

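A set of 88 genes of the filamentous fungus Penicillium oxalicum was nearly without transcripts in the Ku70 strain and carried transcripts in the MuPOX00158 strain. The genes were chosen from these same libraries by their measured level. A gene entered the set when none of the Ku70 libraries reached 2 CPM (counts per 1000000 reads of the library) and each MuPOX00158 library exceeded 5 CPM. The rule left out 9 stretches of identifier numbers. The 88 members are 0.948% of the 9284 genes listed in at least 1 library. Because the rule used the contrast between the strains in all 6 libraries, every difference between the strains given below for a member is a description and carries no test.

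RNA was taken from mycelium of 2 strains, with 3 libraries each, after 24 h of shaken culture in medium with 1% Avicel, a microcrystalline cellulose. MuPOX00158 is labelled as a mutant of POX00158, a gene that the series describes as a phosphokinase. Ku70 is labelled as a mutant of Ku70, a protein of DNA end joining whose loss is commonly used to ease gene targeting in fungi. The labels do not say whether MuPOX00158 was made in the Ku70 strain, how many transformants it stands for, or whether its libraries stem from independent cultures. The spread behind every p-value is that between libraries, and it may be technical in origin. Library totals lay between 2983815 and 3259601 expected counts. The targeted gene POX00158 was near absent from its mutant, with 4, 8 and 9 reads there against 1067, 569 and 763 reads in Ku70.

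In a given culture many genes of a filamentous fungus are close to silent. Genes for secondary metabolites, for asexual spores, for the uptake and breakdown of other nutrients and for defence are known to be switched on only under particular conditions. Genes that act in one pathway of secondary metabolism often lie side by side on the chromosome and are transcribed together. Protein kinases pass signals about nutrients and stress to transcription factors by adding phosphate groups. This is background, and the files give no product name for any member, so no role is assigned to one here. From the literature on this fungus 30 identifiers were recalled as cellulases, beta-glucosidases, xylanases, amylases or regulators. None of them was a member, and none of the 29 that the files list was silent in Ku70. Members are 0.948% of all listed genes, so the lack of overlap with so short a list says little. Of all listed genes, 13.9% were silent in Ku70 (under 2 CPM in every library).

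Few of the genes that were silent in Ku70 became active in MuPOX00158. Of the 9284 listed genes, 1289 were silent in Ku70 by the limit of 2 CPM. Of these, 985 were silent in MuPOX00158 by the same limit, 185 fell in between, and 119 met the full criterion. The 119 are 9.23% of the genes silent in Ku70, and 31 of them stand in the excluded stretches. The reverse criterion was met by 18 of 1189 genes silent in MuPOX00158 (1.51%), 15 of them outside the stretches. Those 15 genes were also weaker: their median was 11.2 CPM in Ku70 and the highest reached 22.7 CPM, and none exceeded 100 CPM, whereas 28 of the 88 members did so in MuPOX00158. In mycelium as a whole, transcripts present in few hyphae and transcripts present at a low level in all hyphae cannot be told apart.

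Together the members held 9648, 7978 and 10679 CPM in MuPOX00158 replicates 1, 2 and 3, and 52.2, 47.4 and 60.5 CPM in Ku70 replicates 1, 2 and 3. In reads, the Ku70 sums were 160, 152 and 191. The share of all reads was thus 0.944 ± 0.136% in MuPOX00158 and 0.00534 ± 0.000662% in Ku70 (SD, n = 3 each). Across members, the median difference between strains was 4.38 on the log2(CPM + 1) scale, against 0.08 over the 7757 genes tested in edgeR. That pseudocount compresses the difference of weak genes, and the median was 6.57 with a pseudocount of 0.1 CPM. In the edgeR quasi-likelihood fit over all genes, 88 of 88 members were tested and 88 were called higher in MuPOX00158 (Benjamini-Hochberg adjusted p below 0.05). In the same fit 37.2% of tested genes were called, 18.6% higher and 18.6% lower. Since the rule used that contrast, the members' count follows from their choice.

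**Figure D1:**
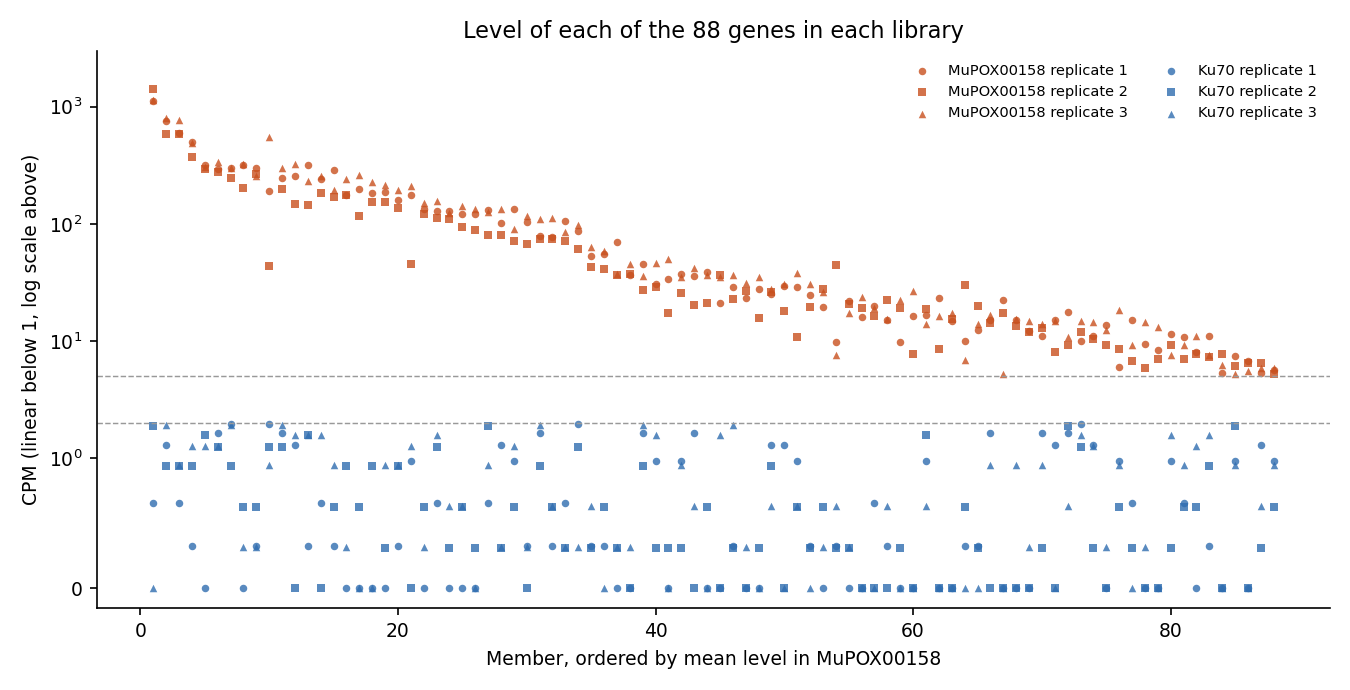
CPM of each of the 88 genes in each of the 6 libraries, with genes ordered on the x axis by their mean level in MuPOX00158 (orange) and Ku70 in blue; the y axis is linear below 1 CPM and logarithmic above, and dashed lines mark the 2 and 5 CPM thresholds. Levels in MuPOX00158 span 5.60 to 1221 CPM as means of 3 libraries, while Ku70 values stay under 2 CPM by the rule.

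The levels reached in MuPOX00158 differed widely between members. Mean levels ran from 5.60 to 1221 CPM, with a median of 31.6 CPM, against a median of 37.5 CPM over all listed genes in that strain. Thus 38 of the 88 members lay above the median gene of the mutant. By class of mean level, 11 members lay between 5 and 10 CPM, 22 between 10 and 20, 19 between 20 and 50, 8 between 50 and 100, 13 between 100 and 200, 12 between 200 and 500, and 3 above 500 CPM. The 10 members with the most reads held 50.2% of the summed level, and POX03250 alone held 12.9%.

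POX03250 was the most abundant member. It was at 1107, 1423 and 1132 CPM in MuPOX00158 and had 2, 6 and 0 reads in Ku70. Over all listed genes it ranked 97 in MuPOX00158 by mean CPM. Pooled over libraries it was 1444-fold higher in MuPOX00158, with a 95% exact binomial interval of 733 to 3347. Such intervals cover counting error only. The deposited FPKM, which scales reads by gene length, put it further ahead, at 6224 ± 964 (SD, n = 3) in MuPOX00158. The effective length implied by its count and FPKM was 197 bases, close to the shortest among members.

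POX03976 and POX02860 followed. POX03976 was at 761, 580 and 800.2 CPM in MuPOX00158 with 4, 3 and 6 reads in Ku70. POX02860 was at 593, 589 and 765 CPM with 2, 3 and 3 reads. Both were lowest in MuPOX00158 replicate 2 and highest in replicate 3, whereas POX03250 was highest in replicate 2. The pooled folds were 515 (95% exact binomial interval 301 to 968) and 764 (387 to 1770).

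POX05888 was at 498, 374 and 487 CPM in MuPOX00158 and had 1, 3 and 4 reads in Ku70. Its neighbour by number, POX05887, belongs to the genes described with the runs of identifiers below. POX08912 was the steadiest member, at 315, 293 and 303 CPM in MuPOX00158, a coefficient of variation (CV) of 0.037, with 0, 5 and 4 reads in Ku70. POX04463 was at 291, 276 and 338 CPM with 5, 4 and 4 reads. POX06102 was at 297, 247 and 301 CPM with 6, 3 and 6 reads, and at 15 reads it shared the highest Ku70 sum among members. POX04562, POX03844 and POX04560 had means of 281 ± 68.4, 274 ± 21.6 and 248 ± 50.3 CPM (SD, n = 3), with 3, 4 and 15 reads over the Ku70 libraries. The remaining members of the 12 with the most reads, POX03434 and POX05092, varied more between libraries. POX05092 was at 255, 146 and 327 CPM in MuPOX00158 with 4, 0 and 5 reads in Ku70.

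The order changed when levels were set per length. By mean FPKM the first 5 members were POX03250, POX03976, POX06102, POX02860 and POX08885. POX03976 was at 2027 ± 332 FPKM, POX06102 at 1183 ± 124 FPKM and POX02860 at 1042 ± 168 FPKM (SD, n = 3). POX08885 ranked 31 by CPM, at 79.4, 74.9 and 110.3 CPM, and rose to the fifth place by FPKM, at 413 ± 97.0 FPKM. Its implied effective length was 213 bases. In the other direction POX04463, with an implied length of 3669 bases, ranked 6 by CPM and 30 by FPKM. Of the 10 highest members by CPM, 7 were also among the 10 highest by FPKM.

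Length was not part of the rule, although fixed CPM limits do not correct for it. The implied effective length of members had a median of 1027 bases and ran from 196 to 4487 bases, while the median over all listed genes was 1135 bases. Members longer than 2000 bases made up 10.2% of the set, against 19.2% of all listed genes. Members shorter than 500 bases made up 14.8% against 17.98%. At a given transcript level a long gene collects more reads, so the 2 CPM limit in Ku70 is harder for it to meet. The shares among the 1289 genes silent in Ku70 were not computed. The shares given are descriptions, and whether the lengths cover the full transcript is not stated in the files. A fractional expected count marks reads split between similar sequences. Such counts were rare, in 32 of the 9284 listed genes, and none of the 88 members had one in any library. At that share their absence among 88 genes says little about the members.

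Silence in Ku70 was not complete for most members. No read was seen in any Ku70 library for 8 members, 27 had 1 to 3 reads over the 3 libraries, and 53 had more than 3. The highest sum was 15 reads and the median was 4.5. A read appeared in every Ku70 library for 39 members, in 2 libraries for 24 and in 1 library for 17. By library, 55, 63 and 64 members had at least 1 read in Ku70 replicates 1, 2 and 3. A count of 0 over the 9425565 reads of the Ku70 group allows a level of up to 0.318 CPM (3 reads over the group).

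The 8 members without a read in Ku70 were weak in MuPOX00158. POX06287, the highest of them, was at 16.1, 19.0 and 23.6 CPM, at least 61.5-fold above the limit of 3 reads. POX07389 was at 16.4, 7.67 and 26.8 CPM, at least 52.7-fold higher. POX03959 was at 23.1, 8.59 and 16.4 CPM. POX02709 was even across libraries, at 14.7, 15.3 and 17.4 CPM, and both genes were at least 49.7-fold higher. POX03898 was at 22.5, 17.2 and 5.24 CPM, so that its lowest library lay just over the threshold. The others, POX00970, POX09803 and POX06056, had means of 9.51, 6.42 and 6.24 CPM. All 12 members with the most reads in MuPOX00158 had at least 3 reads over the Ku70 libraries.

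Pooled folds between strains, with members at 0 set to their bound, had a median of 94.97. They exceeded 100 for 43 members and 8 for 84. The 4 members with folds under 8 were weak in MuPOX00158: POX00319, POX00860, POX03298 and POX08177, the last with the lowest fold, 4.90 (95% exact binomial interval 2.603 to 10.02). POX08177 was at 7.37, 6.14 and 5.24 CPM in MuPOX00158 and had 3, 6 and 3 reads in Ku70. For such genes "silent" and "active" are a matter of few reads.

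Genes just inside and just outside the thresholds had similar values. At the Ku70 limit, 4 members had 6 reads in Ku70 replicate 1 (1.96 CPM), among them POX03434 and POX08386. The nearest genes outside, 3 of them with 7 reads in Ku70 replicate 2 (2.18 CPM), included POX01615, at 81.8, 62.3 and 90.04 CPM in MuPOX00158, and POX05016, at 71.1, 62.0 and 46.5 CPM. At the MuPOX00158 limit the nearest member was POX03298, at 5.70, 5.22 and 5.89 CPM with 3, 2 and 3 reads in Ku70. Outside it, POX03902 was at 6.03, 4.91 and 5.57 CPM with no read in Ku70, and POX03638 at 7.71, 4.91 and 6.55 CPM with 3, 1 and 1 reads.

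Within MuPOX00158 the libraries were not alike for these genes. Replicate 2 gave the lowest value for 62 of the 88 members (70.5%), replicate 1 for 17 and replicate 3 for 9. Replicate 3 gave the highest value for 52 members. The ratio of replicate 2 to the mean of replicates 1 and 3 had a median of 0.762 over members. Among 7119 other genes within the members' range of mean level, replicate 2 was lowest for 45.3%, and the median ratio was 0.959. Among the 1300 of those genes that edgeR called higher in MuPOX00158, replicate 2 was lowest for 65.5%, and the median ratio was 0.873. Low values in replicate 2 thus occurred in members and in other genes higher in the mutant. Their source was not tested.

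**Figure D2:**
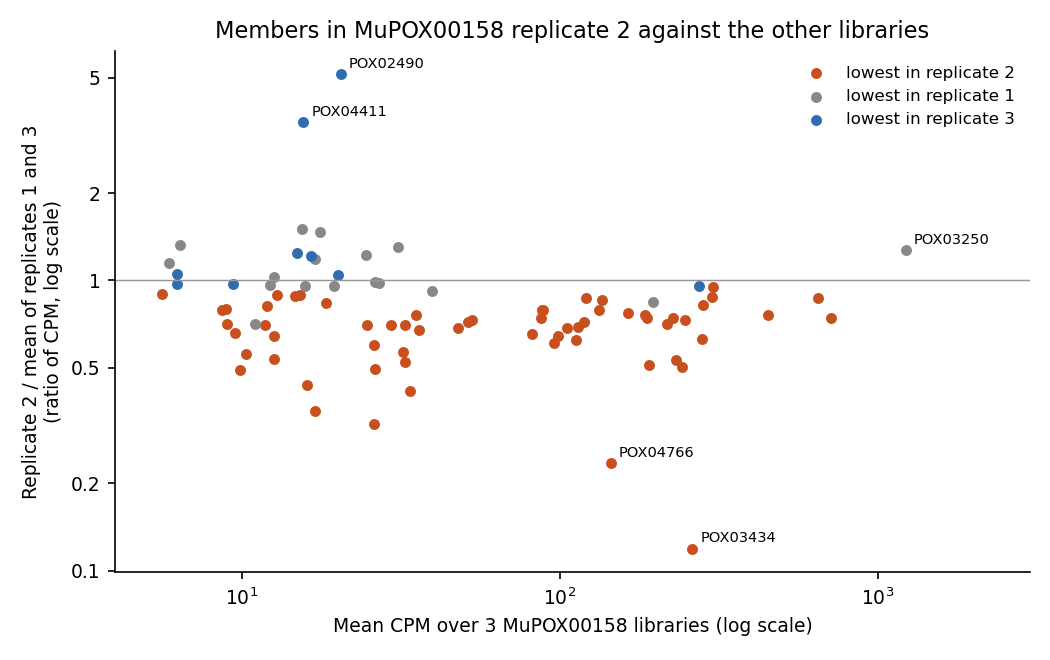
Ratio of the CPM in MuPOX00158 replicate 2 to the mean of replicates 1 and 3 (log scale) against the mean CPM in MuPOX00158 (log scale) for the 88 genes, coloured by the library with the lowest value. Most points lie below 1, with a median of 0.762, while POX02490 and POX04411 lie far above it and POX03434 and POX04766 far below.

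A few members depended strongly on the library. The highest value exceeded the lowest by more than 2-fold in 18 members (20.5%) and by more than 3-fold in 8, whereas 45 members stayed within 1.5-fold. More than 2-fold was seen in 6.91% of the other genes of the same range. The median CV over the 3 libraries was 0.206 for members and 0.130 for those other genes. The other genes were matched on the range of mean level only. Of the members, 33 had means under 20 CPM, where counting error widens the spread, so part of the difference may reflect level. POX02490 had the largest CV, at 9.72, 44.2 and 7.53 CPM, and its mean of 20.5 CPM was 8.62 CPM without replicate 2. POX04411 had the same pattern, at 10.05, 29.8 and 6.88 CPM, with a mean of 15.6 CPM that was 8.47 CPM without replicate 2. POX03434 went the other way, at 191, 43.9 and 546 CPM, and its mean of 260.2 CPM was 117 CPM without replicate 3. POX08078, at 6.03, 8.59 and 18.3 CPM, was the only other member whose mean moved by more than 1.5 times, from 10.99 to 7.31 CPM without replicate 3. POX04766 was at 176, 45.4 and 212 CPM, lowest in replicate 2, and its mean moved by less. By the rule, every MuPOX00158 value of these genes lies above every Ku70 value. POX08912, POX03381 and POX03298 varied least. POX03381 was at 25.1, 26.1 and 27.5 CPM in MuPOX00158 with 4, 3 and 2 reads in Ku70.

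Members were unevenly spread over the identifier numbers, which the rule did not use beyond the excluded stretches. Numbers from 3000 to below 5000 held 38 members, which is 2.01% of the 1889 genes listed there, while all other numbers held 50 members, or 0.676% of 7395 genes. The share of genes silent in Ku70 was similar in both, 13.8% and 13.9%. Among tested genes that were not members, 19.6% were called higher in that range and 17.2% elsewhere. This range was singled out after its values were seen and was not tested. Identifiers of the files could not be placed on a chromosome, so whether close numbers lie close on the genome is not established here.

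**Figure D3:**
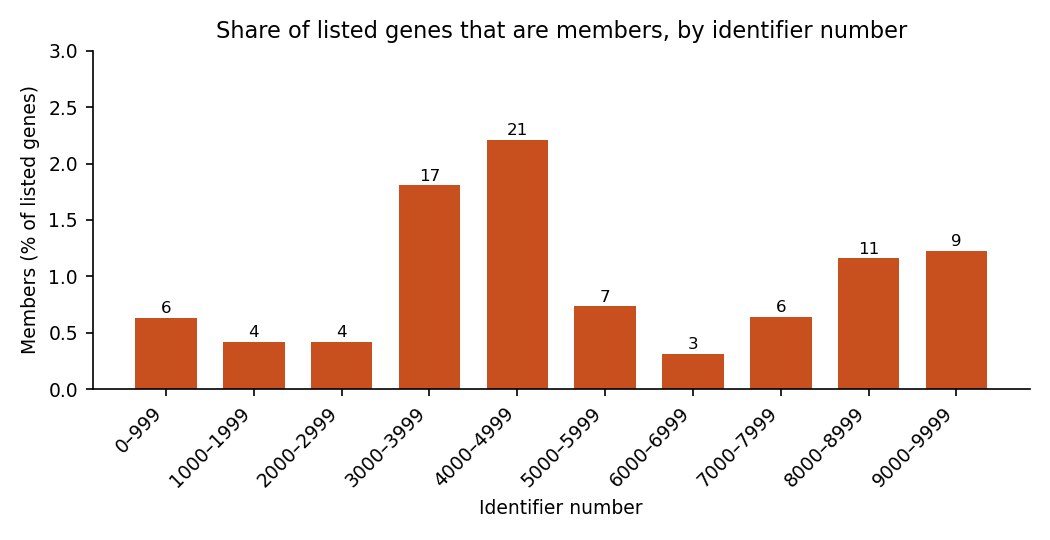
Members as a percentage of the listed genes in each block of 1000 identifier numbers, with the number of members above each bar. The blocks that start at 3000 and 4000 hold 17 and 21 members, and the other blocks hold 3 to 11. Genes that meet the criterion inside the excluded stretches are not counted as members, which lowers some blocks more than others. With them counted, the blocks that start at 3000, 4000, 5000, 8000 and 9000 hold 18, 21, 18, 19 and 19 genes.

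Some members stood next to each other by number. Of the 88, 24 lay within 5 numbers of another member, in 11 groups, and 64 had no member that near. The same count was not made for other genes, so whether 24 is many cannot be judged here. With the stricter limits of 1 and 10 CPM, which kept 36 genes, 6 lay within 5 numbers of another. The 2 groups of 3 members were POX04560 to POX04562 and POX07389, POX07390 and POX07392.

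The group POX04560, POX04561 and POX04562 was strong. POX04560 was at 245, 199 and 299.6 CPM in MuPOX00158 with 5, 4 and 6 reads in Ku70. POX04561 was at 197, 117 and 259 CPM with 0, 2 and 0 reads. POX04562 was at 315, 202 and 325 CPM with 0, 2 and 1 reads, and all 3 were lowest in replicate 2 and highest in replicate 3. In sum the group held 719.6 ± 186 CPM in MuPOX00158 (SD, n = 3). The gene before it, POX04559, rose less in edgeR (log2 fold change 1.76, SE 0.21, adjusted p = 0.000496), to 91.3 ± 15.7 CPM against 25.7 ± 6.42 CPM in Ku70. POX04563 on the other side, at 8.45 ± 2.84 against 4.67 ± 0.983 CPM, missed the threshold (edgeR adjusted p = 0.102). POX04564 and POX04565 fell, with log2 fold changes of -2.57 and -2.68.

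The group POX07389, POX07390 and POX07392 was weaker. In Ku70 the 3 genes had 2 reads in all. POX07390 was at 33.8, 17.5 and 50.4 CPM in MuPOX00158 and POX07392 at 27.8, 15.6 and 35.4 CPM. POX07391, between them, had no read in Ku70 and was at 6.70, 1.53 and 9.17 CPM, so that replicate 2 kept it out of the set. POX07388 was at 167 ± 80.3 CPM against 5.21 ± 1.64 CPM in Ku70 and rose in edgeR (log2 fold change 4.91, SE 0.44, adjusted p = 0.000114). All 5 genes were lowest in MuPOX00158 replicate 2 and highest in replicate 3. POX07387 and POX07386 fell, with log2 fold changes of -1.83 and -1.15, and POX07393 was under 2 CPM in every library.

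Several pairs of members were joined by further genes that missed the 2 CPM limit. POX04226 was at 122, 94.5 and 141 CPM in MuPOX00158 with 0, 2 and 2 reads in Ku70, and POX04227 at 104, 66.9 and 116 CPM with 1, 0 and 1 reads. POX04224 and POX04225 before them had log2 fold changes of 4.56 and 4.04, and POX04228 after them did not pass (log2 fold change 0.14, edgeR adjusted p = 0.696). POX08107 and POX08108 were at 217 ± 61.0 and 98.5 ± 31.1 CPM in MuPOX00158 (SD, n = 3), followed by POX08109, at 154 ± 11.7 against 2.34 ± 0.406 CPM, and POX08110, with a log2 fold change of 1.06. POX08827 and POX08828 were at 114 ± 23.3 and 227 ± 37.8 CPM and were followed by POX08829 and POX08830, with log2 fold changes of 4.01 and 2.97. POX08826 on their other side fell from 817 ± 400.0 to 98.7 ± 26.9 CPM (log2 fold change -3.14). POX03776 and POX03778, at 12.6 ± 4.01 and 18.3 ± 1.84 CPM, enclosed POX03777, which rose with a log2 fold change of 4.41, to 48.6 ± 10.5 CPM against 2.13 ± 0.813 CPM in Ku70.

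**Figure D4:**
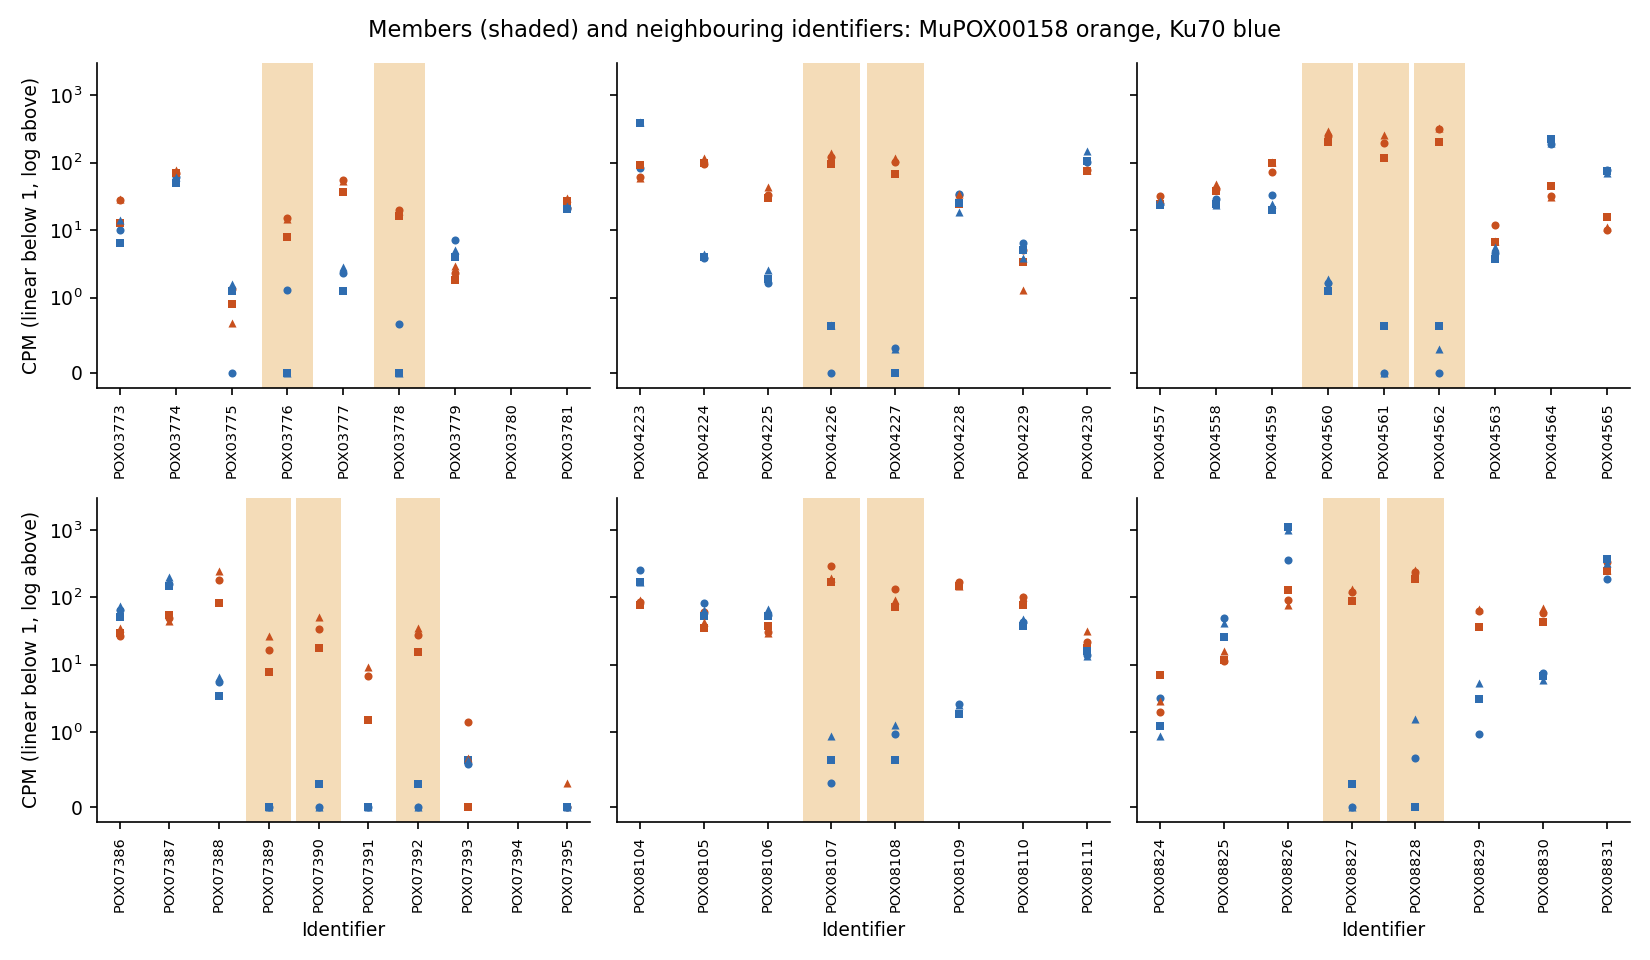
CPM in each library (MuPOX00158 orange, Ku70 blue; circle, square and triangle for replicates 1, 2 and 3; y axis linear below 1 and logarithmic above) for 6 groups of members, shaded, and the 3 identifiers on either side. Unshaded genes such as POX03777, POX04225, POX07388, POX08109 and POX08829 are also higher in MuPOX00158, while POX04564, POX07387 and POX08826 are lower.

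Not all neighbours behaved alike. POX04410 and POX04411 carry adjoining numbers, yet POX04410 was even across MuPOX00158, at 23.1, 26.7 and 31.4 CPM, while POX04411 was highest in replicate 2, at 29.8 CPM, against 10.05 and 6.88 CPM. POX03844 and POX03849 had 4 genes between them, of which POX03845, POX03846 and POX03847 rose with log2 fold changes of 0.98, 0.92 and 0.59. POX03848 missed the threshold (54.8 ± 5.86 against 53.2 ± 3.52 CPM in Ku70, edgeR adjusted p = 0.856). POX08381 and POX08386 also had 4 genes between them, none of them called higher. POX04905 and POX04907 enclosed POX04906, which did not pass (log2 fold change 0.69, edgeR adjusted p = 0.253). POX09405, at 12.1, 11.96 and 14.7 CPM in MuPOX00158, and POX09406, at 9.72, 19.02 and 22.3 CPM, were followed by POX09407, which fell with a log2 fold change of -1.62.

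The genes next to members were then counted in all. The identifiers 1 number below or above a member name 151 listed genes outside the set, of which 119 were tested. In edgeR 36 of them (30.3%) were called higher in MuPOX00158 and 18 (15.1%) lower, against 18.6% in each direction over all tested genes and 17.7% higher among tested genes that were not members. Of the tested neighbours, 10 (8.40%) were higher by 8-fold or more, against 3.58% of all tested genes and 2.53% of tested genes that were not members. With numbers up to 2 away, 27.0% of 233 tested genes were higher and 19.3% lower. Without MuPOX00158 replicate 1 the count of lower neighbours was 11, while that of higher ones was 31. Calls over all genes fell too in that fit, from 1446 to 997 lower and from 1442 to 1010 higher. No chance test was made of these shares, since members were chosen with results known.

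Among the neighbours called higher, POX05887 had the highest level in MuPOX00158. It was at 1900.25, 1626 and 1747 CPM in MuPOX00158 and at 4.24, 3.12 and 2.22 CPM in Ku70 (edgeR log2 fold change 9.01, SE 0.32, adjusted p = 1.53e-06). Its level exceeded that of its member neighbour POX05888, and also that of POX03250, and its Ku70 values alone kept it out of the set. POX03249, next to POX03250, was at 63.5 ± 7.53 CPM against 9.42 ± 3.28 CPM in Ku70 and rose in edgeR (log2 fold change 2.67, SE 0.26, adjusted p = 0.000165). POX03095 and POX03459, next to POX03096 and POX03460, were uneven in MuPOX00158. POX03095 was at 45.2, 4.30 and 137.5 CPM there, and POX03459 at 22.5, 6.14 and 46.5 CPM. Both were lowest in replicate 2, and both passed the test (edgeR adjusted p = 0.0128 and 0.0158). Their members were steadier: POX03096 was at 36.5, 37.4 and 45.2 CPM, and POX03460 at 318, 146 and 231 CPM. The strand setting of the counting is not given in the sources used here, so reads of overlapping neighbours cannot be told apart.

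Runs of consecutive tested genes that were all higher by 2-fold or more held 48 of the 88 members (54.5%) in runs of at least 2 genes, and 40 members stood alone. Of all tested genes, 10.2% were higher by 2-fold or more. Of the 704 such genes that were not members, 41.5% stood in runs of at least 2. These 704 include genes of the excluded stretches and 46 genes in runs with members, so the shares come from unlike sets. The longest run with a member had 4 genes, and there were 12 runs of 3 or more. The run POX05887 to POX05888 had the largest sum, 2210.3 ± 200.5 CPM in MuPOX00158 against 4.04 ± 0.542 CPM in Ku70. The run POX03249 to POX03250 came next, at 1284 ± 183 against 10.3 ± 2.92 CPM (SD, n = 3 each). Untested genes were skipped in forming runs, so some runs pass over a gene with few reads.

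The 31 genes that met the same criterion inside the excluded stretches differed from the members in level. Their median was 188 CPM in MuPOX00158, against 31.6 CPM for the members, and 20 of the 31 (64.5%) exceeded 100 CPM, against 31.8% of members. Their highest gene, at 819.9 CPM, lay below POX03250. In sum they held 7175 CPM, while the 88 members held 9435 ± 1363 CPM (SD, n = 3). Replicate 1 was the highest MuPOX00158 library for 67.7% of the genes in the stretches and for 29.5% of the members. These are descriptions of sets chosen by their level.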

How the data were processed

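Per the file headers, the authors deposited for each library an expected count per gene and an FPKM value (reads scaled by gene length and library size). The submitters' processing notes list BWA 0.7.10-r789, DESeq2, Bowtie2 2.1.0 and RSEM 1.2.12 and give no roles. Build, annotation and strandedness: not given in the sources used here. Genes not listed in a library were taken as 0. Groups follow the strain label.

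CPM used plain library totals. Folds pool the libraries of a strain. Expected counts were rounded and fitted with edgeR 4.0.16 (R 4.3.3; filterByExpr, TMM, quasi-likelihood test, Benjamini-Hochberg adjustment at 0.05), tested on simulated data; DESeq2 1.42.0, other scalings, no filter, other limits and leaving out each library were alternatives. The SE of a log2 fold change is its size over the root of its F statistic. Effective length is the median of count / (FPKM × total), scaled to bases, over the libraries in which the gene had a count. Deviations from the strain mean correlated at 0.149, 0.216 and 0.157 between libraries with the same letter in their title. Between libraries with different letters the correlations ran from -0.174 to 0.032. These values are linked with each other, since the deviations are centred within each strain. Libraries with the same letter were treated as paired in an alternative fit.

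Members and lists were chosen with earlier results of these data known. Named members are the 12 with the most reads, the 5 highest by FPKM, the 5 highest without a Ku70 read, those with the 3 largest and 3 smallest CVs, groups of 3 or more, and genes at the thresholds. Pairs, neighbours, runs, folds under 8, POX04766, POX08078 and the remaining members without a Ku70 read were added after their values were seen. The enzyme and regulator identifiers are recalled, not from the files. The RefSeq table of this species (ASM172317v3) holds none of the identifiers as written, and lengths matched by number had a Spearman rho of 0.01 across 3737 genes, so no name, position or sequence is given.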

Additional observations from a re-analysis of the deposited data

How the results depend on the processing

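The set depends on its limits. It had 83 genes with TMM scaling and 84 with upper-quartile scaling, all of them among the 88, 66 with limits of 2 and 10 CPM, and 36 with 1 and 10 CPM. FPKM limits of 2 and 5 also gave 88 genes, of which 65 were shared. Leaving out 1 library gave 90 to 102 genes, which can only raise the count. The number without a Ku70 read, 8, was 2 under both narrower limits and 19 with FPKM. Leaving out 1 MuPOX00158 library gave 8 to 14, the latter without replicate 2. This number always used the reads of all 3 Ku70 libraries, so its dependence on a single Ku70 library was not tested. Members within 5 numbers of another, 24, were 6 with 1 and 10 CPM, where fewer genes qualify. The median log2 difference, 4.38, was 6.57 with a pseudocount of 0.1 CPM and 4.65 on FPKM, and 4.29 to 4.52 without 1 library. Neighbours called higher, 36, were 63 and those called lower, 18, were 45 when numbers up to 2 away were counted, by construction. Leaving out 1 library gave 31 to 42 higher and 11 to 25 lower. Over all genes 2888 changed, and 2909 did with the replicate block, where 38 neighbours were higher and 18 lower; 2989 changed with DESeq2, and 1984 to 3323 without 1 library. No value of these results reversed, and none could. Counts, levels, CVs and lengths are never negative, and the rule fixed the sign of the median log2 difference. Depth limits the weakest members, whose MuPOX00158 counts were as low as 16 reads in a library.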
